A study of Mus musculus with 12 samples.

Results

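The genes described here encode the proteins of the spliceosome's small nuclear ribonucleoprotein particles (snRNPs) and their close partners. They were the 54 protein-coding genes, of 31091 genes in the deposited table, whose symbols begin with Snrp, Snrnp, Sf3a, Sf3b, Prpf or Lsm followed by a digit. Granule cell progenitors, which divide in the outer layer of the young cerebellum and give rise to its granule neurons, were profiled by RNA sequencing at postnatal day 3 (P3) in 3 control libraries and 3 libraries of a Znhit3 conditional knockout (cKO). The genotype of the controls is given as WT, so whether they carried a floxed allele or a Cre transgene is not given in the sources used here, and neither are the Cre driver, the strain or the way the cells were isolated. The series holds 12 samples, and the 6 from postnatal day 6 were not analysed here. Nothing in the labels says that the 3 libraries of a group came from separate animals, so p-values measure only the spread between these libraries, which may be technical.

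The spliceosome removes introns from pre-mRNA and is built on each intron from snRNPs, each an RNA bound by proteins. The U1 particle recognises the start of an intron and U2 the branch point, and the U4/U6.U5 tri-snRNP then joins before the catalytic centre forms. A ring of Sm proteins sits on the U1, U2, U4 and U5 RNAs and a related ring of LSm proteins on U6, while a minor spliceosome with its own RNAs removes a rare class of introns. Znhit3 encodes a zinc finger HIT protein that acts with Nufip1 in the assembly of box C/D small nucleolar ribonucleoproteins, particles that share the RNA-binding protein Snu13 with the U4 particle.

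Some of these genes have near-identical processed copies elsewhere in the mouse genome, and reads from a copy and its parent cannot always be told apart. At an identity of at least 90% over at least 50% of the coding sequence, 18 of the 54 genes had a copy among the GENCODE M21 transcripts, 44 copies in all, and 21 of the copies had a row in the deposited table. Both pairs below are shown because the table lists both partners, and because Snrpf stood apart from the other Sm genes in level. Coding sequences are from GRCm38, written without the stop codon. The gene spans are Snrpf at chr10:93583029-93589706 on the minus strand, its copy Gm13092 at chr4:150315177-150315436 on the minus strand, Snrpg at chr6:86371304-86379328 on the plus strand and its copy Gm8186 at chr17:26098991-26099221 on the minus strand. Capitals mark the 4 mismatches between Snrpf and Gm13092 over 257 aligned bases.
Snrpf: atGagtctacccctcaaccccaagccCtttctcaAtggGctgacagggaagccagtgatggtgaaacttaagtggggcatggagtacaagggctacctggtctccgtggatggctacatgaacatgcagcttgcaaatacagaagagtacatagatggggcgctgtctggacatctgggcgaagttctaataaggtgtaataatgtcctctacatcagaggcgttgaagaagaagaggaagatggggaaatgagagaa
Gm13092: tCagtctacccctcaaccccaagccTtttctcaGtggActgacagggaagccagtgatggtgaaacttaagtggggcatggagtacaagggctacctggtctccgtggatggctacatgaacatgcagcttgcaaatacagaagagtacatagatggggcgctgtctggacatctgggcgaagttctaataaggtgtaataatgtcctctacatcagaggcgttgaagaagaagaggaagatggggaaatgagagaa
Snrpg: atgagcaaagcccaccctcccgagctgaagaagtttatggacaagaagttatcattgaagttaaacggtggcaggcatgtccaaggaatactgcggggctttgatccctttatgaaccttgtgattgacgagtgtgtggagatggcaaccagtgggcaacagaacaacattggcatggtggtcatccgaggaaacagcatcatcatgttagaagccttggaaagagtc
Gm8186: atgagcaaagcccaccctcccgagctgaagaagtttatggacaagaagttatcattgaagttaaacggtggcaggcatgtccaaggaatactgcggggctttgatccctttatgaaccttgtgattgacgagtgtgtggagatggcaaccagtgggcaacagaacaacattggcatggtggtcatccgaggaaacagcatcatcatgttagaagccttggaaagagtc
Snrpg and Gm8186 did not differ at any of the 228 bases, so a read that lies inside this stretch fits both.

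RefSeq promoter windows (GRCm38.p6), here the 250 bases before the transcription start, were found for 44 of the 54 genes. They are described because the choice of genes did not use them, and 3 windows are printed as examples, those of Snrpe and Snrnp27, which were lower in cKO, and of Prpf39, which was higher. The windows are Snrpe at chr1:133610281-133610530 on the minus strand, Snrnp27 at chr6:86684492-86684741 on the minus strand and Prpf39 at chr12:65036084-65036333 on the plus strand. Capitals mark matches to a motif searched on both strands, which were an ETS match 44 bases before the start of Snrnp27 and, in Prpf39, an E-box match 43 bases and an NRF1 match 13 bases before the start. Snrpe had no match to the 6 motifs.
Snrpe: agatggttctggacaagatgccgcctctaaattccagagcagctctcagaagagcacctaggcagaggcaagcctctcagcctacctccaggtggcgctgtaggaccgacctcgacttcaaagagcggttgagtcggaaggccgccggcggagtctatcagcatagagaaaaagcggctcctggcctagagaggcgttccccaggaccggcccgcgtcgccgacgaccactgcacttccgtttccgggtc
Snrnp27: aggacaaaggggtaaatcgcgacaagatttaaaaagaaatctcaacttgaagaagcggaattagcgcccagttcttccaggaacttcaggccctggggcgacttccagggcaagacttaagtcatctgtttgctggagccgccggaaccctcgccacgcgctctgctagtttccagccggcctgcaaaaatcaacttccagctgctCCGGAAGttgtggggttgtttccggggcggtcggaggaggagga
Prpf39: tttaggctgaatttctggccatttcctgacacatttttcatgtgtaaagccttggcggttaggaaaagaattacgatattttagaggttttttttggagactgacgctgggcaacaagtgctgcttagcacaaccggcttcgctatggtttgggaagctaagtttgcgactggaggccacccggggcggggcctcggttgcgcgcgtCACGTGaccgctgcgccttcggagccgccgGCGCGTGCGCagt
The ETS motif CCGGAAG was in 14 of the 44 windows (31.8%), against 7.05% of all 27025 windows and 14.1% of the 9592 windows of tested protein-coding genes. The NRF1 motif (GCGC, any base, then TGCGC) was in 9 windows (20.5%), against 3.86% of all windows and 8.59% of those of tested coding genes. The CCAAT box was in 17 windows (38.6%, against 34.5% of all) and the YY1 motif AAGATGGCG in 0 (against 0.607%), with 36.9% and 1.13% of the windows of tested coding genes. The E-box CACGTG was in 3 windows (6.82%), between the 6.05% of all windows and the 8.56% of those of tested coding genes. The TATA motif TATAAA was also in 3 (6.82%), below the 13.0% of all windows and above the 5.74% of those of tested coding genes. Among the 5 lower genes with a window, Snrnp27 and Sf3a3 held the ETS motif, and Lsm14b the NRF1 motif and the CCAAT box. These are matches of letters and not measured binding.

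The libraries held between 29119803 and 52961445 counted reads, recovered from the FPKM values (fragments scaled to gene length and library size). At that depth 3 reads in a gene of 1 kb correspond to between 0.0566 and 0.103 FPKM, a limit for counting error only, and 53 of the 54 genes lay far above it. Znhit3 was at 9.15, 8.62 and 8.58 FPKM in control and at 4.03, 4.01 and 4.57 in cKO. All cKO libraries lay below all controls, and the cKO mean was 47.8% of control (8.78 ± 0.32 against 4.20 ± 0.315, SD, n = 3 per group), a log2 difference of -0.91 ± 0.06 (SE) with a limma adjusted p of 0.00024. Reads from exons outside the deleted stretch, which the sources used here do not define, count toward this value. By an exact permutation test, two-sided, p was 0.1, the lowest value that 3 against 3 libraries can give. Below, each difference is that of log2(FPKM + 1), with control subtracted from cKO, a scale on which changes of low genes come out too small. Calls were made at an adjusted p under 0.05 (Benjamini-Hochberg) among the 13538 genes that averaged 1 FPKM or more.

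All 54 genes passed the filter on low values, although Snrpf did so only through the control group, so that a lower cKO value was built into its inclusion. Its difference of -0.38 is left out of the median and of the counts by sign and overlap given for the other 53 genes. In cKO libraries 6 genes fell, namely Snrpe, Snrpd1, Snrnp35, Snrnp27, Sf3a3 and Lsm14b, and Prpf39 rose, while 47 did not pass the test. The background was 19.1% of all tested genes called, 13.4% higher and 5.74% lower, against 13.0%, 1.85% and 11.1% of these genes. At an unadjusted limma p under 0.05, 3225 of the 13538 tested genes were higher and 1621 lower, beside 2 and 13 of the other 53 genes. Differences of the other 53 genes were small, from -0.29 for Snrpe to 0.17 for Prpf39, with a median of -0.09 beside 0.03 over all tested genes. A total of 38 of the 53 had a difference below 0 (71.7%), against 42.1% of all tested genes. In 15 genes every cKO library lay below every control and in 7 every cKO library lay above, which is 28.3% and 13.2% of the 53 against 13.2% and 27.3% of all tested genes (40.5% in either direction). By the adjusted p of the authors' deposited table, 26 of the 54 were lower at under 0.05 and 0 higher, against 13.4% lower and 12.1% higher among the tested genes (25.5% in either direction). Among the 26 were genes described below as not passing the limma test, such as Snrpg, Lsm4, Snrnp40, Snrnp70, Prpf3, Sf3b2 and Snrpb2. In bulk RNA, fewer cells of a type and less RNA per cell cannot be told apart.

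**Figure D1:**
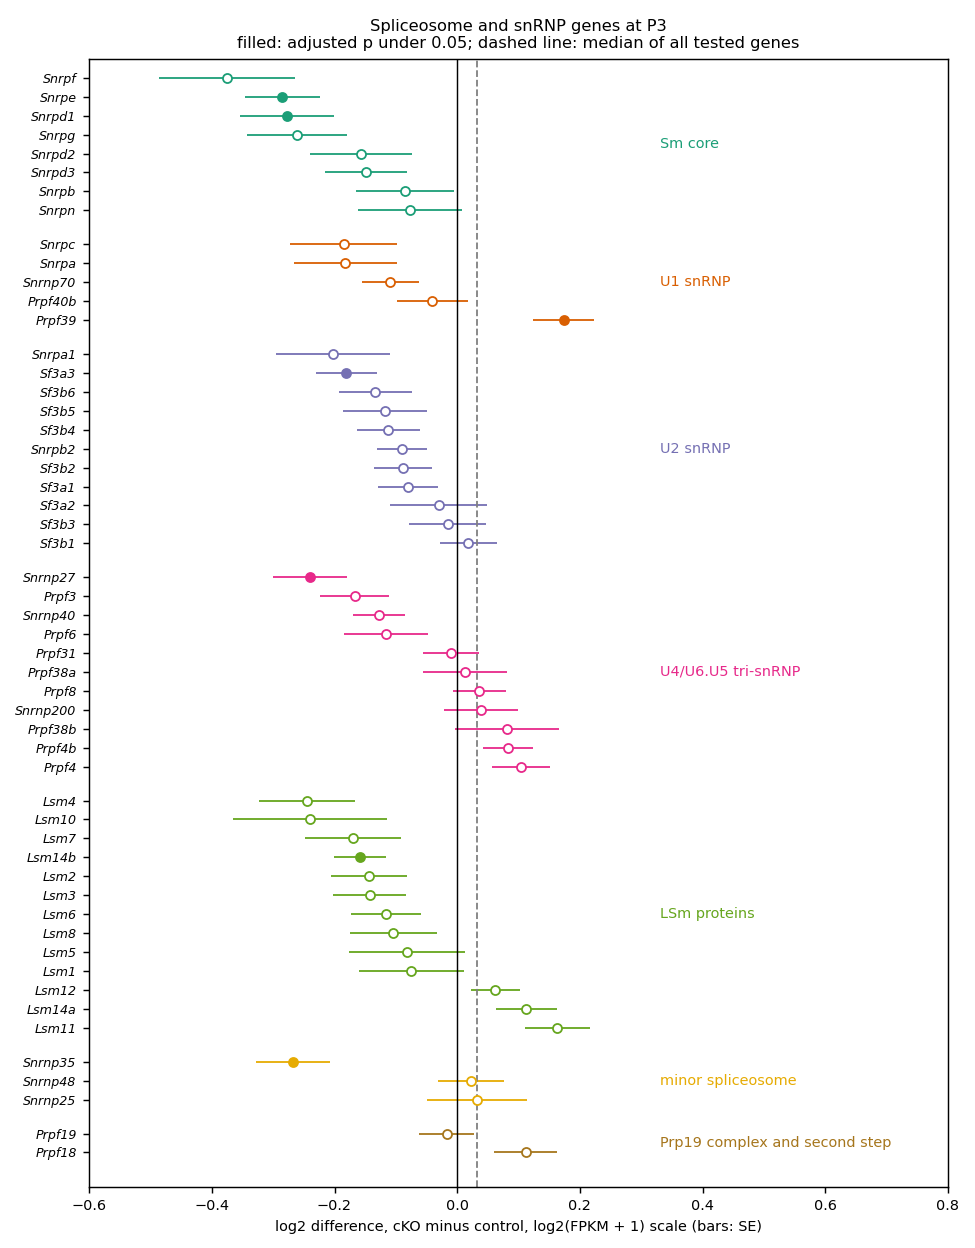
Log2 difference between cKO and control at P3 for 53 of the 54 genes, as log2(FPKM + 1) of cKO less that of control, grouped by class, with the SE as a bar. Snrpf is shown, and the gene left out is not reported here. Filled points are the 7 genes with an adjusted p under 0.05 and the dashed line is the median of all tested genes at 0.03. The 7 Sm genes other than Snrpf lie left of 0 and the tri-snRNP genes lie on both sides.

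Cell composition markers moved between the same groups, and their part in these differences was not tested. All 12 markers of granule cell progenitors were measured, with Atoh1 at 37.5 ± 3.26 FPKM in control and 35.0 ± 2.08 in cKO, and their summed level was 1340 to 1443 FPKM in control and 1109 to 1140 in cKO, with 1 marker higher and 4 lower. All 9 endothelial markers were higher (summed 135 to 148 FPKM against 240 to 256 in cKO), as were all 6 pericyte markers (70.3 to 70.9 against 102 to 106). Of the tested markers, 6 of 7 were higher and 1 lower for GABAergic interneurons (79.9 to 86.9 against 103 to 111) and 6 of 7 for the oligodendrocyte lineage (102 to 109 against 128 to 140). Counts were 5 of 7 for microglia (142 to 145 against 175 to 199) and 4 of 7 for astroglia (814 to 840 against 856 to 882). All 3 tested Purkinje cell markers were higher (9.64 to 11.4 against 12.7 to 13.2), as were 4 of 5 for red blood cells (1210 to 1475 against 1655 to 1885). For the choroid plexus 4 of 5 were lower and 1 higher (1354 to 1440 against 646 to 723). No marker was at 0 in all libraries. Xist, expressed from the inactive X chromosome of female cells, was at a mean of 53.7 FPKM in control and 24.0 in cKO, and the Y-linked Ddx3y at 5.28 and 12.4. The mix of sexes may thus also have differed between the groups, which was not tested.

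The Sm genes encode the ring shared by most snRNPs. Without Snrpf, all 7 had a difference below 0, with a median of -0.16, 2 of them fell by the test, and the groups did not overlap in 3. Of all tested genes, 42.1% had a difference below 0, 5.74% fell by the test and 13.2% had every cKO library below every control. By the authors' deposited adjusted p, 5 of the 7 were lower and 0 higher, beside 13.4% and 12.1% of all tested genes. The FPKM of all 8 summed to 400, 451 and 451 in control and to 354, 399 and 386 in cKO. Every cKO sum lay below every control sum, though the highest cKO library and the lowest control library were close.

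Snrpe encodes SmE, one of the 3 proteins that enter the ring together with SmF and SmG, and lies on chromosome 1 from 133531609 to 133538029 on the minus strand (positions as deposited, build not stated in the table). It was at 76.9, 83.6 and 79.7 FPKM in control and at 60.9, 70.6 and 65.3 in cKO. The groups did not overlap. The mean fell to 81.9% of control (80.1 ± 3.37 to 65.6 ± 4.88, SD, n = 3 per group), a log2 difference of -0.29 ± 0.06 (SE), limma adjusted p = 0.018. Snrpd1, which encodes SmD1, was at 57.1, 64.3 and 67.7 FPKM in control and 47.5, 52.3 and 55.6 in cKO. Here the highest cKO library lay just under the lowest control library. The mean was 82.2% of control (63.0 ± 5.43 to 51.8 ± 4.05, SD, n = 3 per group), a difference of -0.28 ± 0.08 (SE), limma adjusted p = 0.041.

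Snrpg, encoding SmG, missed the threshold with a limma adjusted p of 0.058, at 58.1, 68.9 and 72.1 FPKM in control and 53.5, 58.4 and 53.1 in cKO, with 1 cKO library above the lowest control. Its identical copy Gm8186 was listed at 10.5, 12.7 and 15.7 FPKM in control and 8.77, 6.66 and 10.9 in cKO, which is low beside its parent. Snrpf, encoding SmF, had the lowest level of all 54 genes, at 1.60, 0.972 and 1.27 FPKM in control and 0.774, 0.750 and 0.718 in cKO. These values came from 18 to 58 reads per library. SmE, SmF and SmG are present in the ring in equal number, and Snrpe was at a mean of 72.8 FPKM over the 6 libraries. The other Sm genes had means of 23.9 FPKM or more. Snrpf's difference of -0.38 ± 0.11 (SE) did not pass the test (limma adjusted p = 0.051), and its copy Gm13092 was listed at 0 in 4 of the 6 libraries and at no more than 0.191 FPKM in the others. Snrpf also overlaps Ccdc38 on the other strand by 1299 bases. How the reads of Snrpf and its copies were assigned was not tested.

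Snrpb, which encodes SmB, was the most abundant of the class and of all 54 genes. It was at 105, 121 and 117 FPKM in control and 96.4, 114 and 113 in cKO, with overlapping groups, and its difference of -0.09 ± 0.08 (SE) did not pass the test (limma adjusted p = 0.48). Its paralog Snrpn, an imprinted gene whose product SmN takes the place of SmB mainly in neurons, was at 24.4, 26.5 and 22.6 FPKM in control and 20.5, 23.7 and 25.4 in cKO. The ratio of Snrpn to Snrpb was 0.233, 0.219 and 0.193 in control and 0.213, 0.208 and 0.226 in cKO. The means of this ratio were 0.215 ± 0.0202 and 0.215 ± 0.0092 (SD, n = 3 per group), and p was 1 by the exact permutation test, two-sided (1 also after adjustment over 3 ratios). Snrpn shares 22570 bases of its span with Gm38393 on the same strand, so these values may hold reads of both. Snrpd2 and Snrpd3, encoding SmD2 and SmD3, had differences of -0.16 and -0.15 that did not pass the test.

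**Figure D2:**
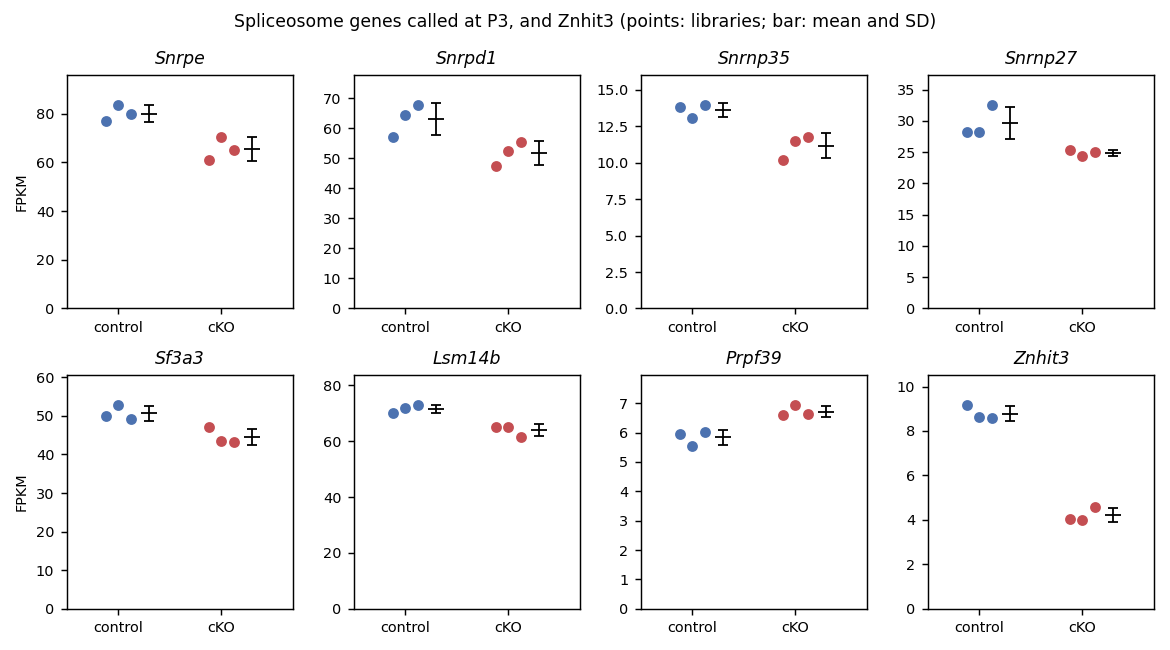
FPKM of the 7 called genes and of Znhit3 in each of the 6 P3 libraries (points), with the mean and SD of each group as a bar. In each panel all 3 cKO points lie on one side of the 3 control points, and Prpf39 is the panel other than Znhit3 with the lowest level, between 5.55 and 6.93 FPKM.

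Among the genes of the U1 particle, 1 of 6 rose and 0 fell by the limma test (1 higher and 1 lower at an unadjusted p under 0.05), and 4 had a difference below 0. Of all tested genes, 13.4% rose, 5.74% fell and 42.1% had a difference below 0. By the authors' deposited adjusted p, 3 of the 6 were lower (Snrnp70, Snrpa and Snrpc) and 0 higher. The same measure gave 13.4% lower and 12.1% higher among all tested genes. Prpf39, a U1-associated factor that helps U1 engage the start of the intron, was at 5.96, 5.55 and 6.01 FPKM in control and 6.60, 6.93 and 6.62 in cKO. Each cKO library was above the highest control. The mean rose to 115% of control (5.84 ± 0.251 to 6.72 ± 0.182, SD, n = 3 per group), a difference of 0.17 ± 0.05 (SE), limma adjusted p = 0.045. In the authors' deposited table its adjusted p was 0.059. Prpf39 lies on chromosome 12 from 65083107 to 65110160 on the plus strand, and its span shares 963 bases with Fkbp3, on the other strand, which was at a mean of 20.1 FPKM. Whether strand was used in counting is not given in the sources used here, so reads in that overlap cannot be told apart.

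Snrnp70, encoding the U1-70K protein that binds the U1 RNA directly, was the most abundant U1 gene, at 73.5, 79.1 and 76.9 FPKM in control and 73.7, 70.0 and 68.8 in cKO. The groups overlapped by a single library and the difference of -0.11 ± 0.05 (SE) did not pass the test (limma adjusted p = 0.14). Snrpa and Snrpc, encoding U1-A and U1-C, had differences of -0.18 and -0.19 with overlapping groups.

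Of the 11 genes of the U2 particle, which include both SF3 complexes that hold the branch point, 1 fell and 0 rose by the limma test (1 and 0 at an unadjusted p under 0.05). Of all tested genes 5.74% fell and 13.4% rose. By the authors' deposited adjusted p, 7 of the 11 were lower and 0 higher, beside 13.4% and 12.1% of all tested genes. A difference below 0 was found in 10 of the 11, against 42.1% of all tested genes, with a median of -0.09. The summed level was 435, 450 and 448 FPKM in control and 425, 414 and 415 in cKO. The cKO sums were all below the control sums. Sf3a3, encoding a subunit of SF3A, was at 50.1, 52.7 and 49.1 FPKM in control and 47.0, 43.6 and 43.1 in cKO. Each cKO library was below the lowest control. The mean fell to 88.0% of control (50.6 ± 1.87 to 44.6 ± 2.13, SD, n = 3 per group), a difference of -0.18 ± 0.05 (SE), limma adjusted p = 0.040. Sf3a3 lies on chromosome 4 from 124608569 to 124626253 on the plus strand.

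The other SF3A genes, Sf3a1 and Sf3a2, had differences of -0.08 and -0.03. Sf3b2, an SF3B subunit and the most abundant U2 gene, was at 60.4, 66.5 and 61.6 FPKM in control and 58.2, 58.6 and 60.3 in cKO. Its cKO libraries lay just below the controls, with a difference of -0.09 ± 0.05 (SE) that did not pass the test (limma adjusted p = 0.22). Sf3b1, the large scaffold of SF3B, was the sole U2 gene with a difference above 0, at 0.02, and its groups overlapped. Its log2 fold change in the authors' deposited comparison was -0.04. Sf3b3 to Sf3b6 had differences from -0.13 to -0.02. Snrpb2, encoding U2-B'', lay lower in every cKO library, at 40.3, 38.0 and 39.4 FPKM in control and 36.1, 37.1 and 37.2 in cKO, and did not pass the test (limma adjusted p = 0.15). Snrpa1, encoding its partner U2-A', had a difference of -0.20 with overlapping groups.

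**Figure D3:**
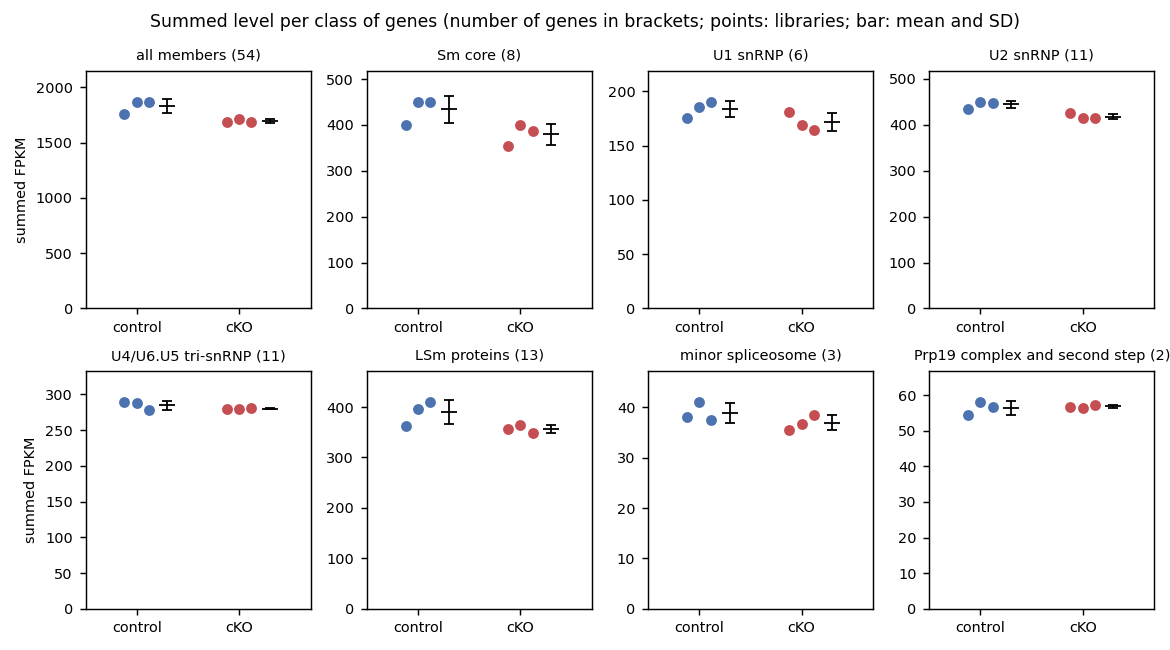
Summed FPKM of the genes of each class in each P3 library (points), with the mean and SD of each group as a bar, from all 54 genes to the 2 of the Prp19 complex and second step. The control and cKO points separate for all 54 genes, the Sm core and U2, and overlap in the other classes.

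The 11 tri-snRNP genes did not share a direction. Their median was 0.01, with 5 below 0 and 6 above, and 1 fell and 0 rose by the limma test (3 and 0 at an unadjusted p under 0.05). Of all tested genes, 42.1% had a difference below 0, 5.74% fell and 13.4% rose. By the authors' deposited adjusted p, 4 of the 11 were lower and 0 higher, beside 13.4% and 12.1% of all tested genes. The summed level was 289, 288 and 278 FPKM in control and 280, 279 and 281 in cKO, so the cKO libraries lay within the control range. Snrnp27, which encodes a small tri-snRNP protein rich in arginine and serine, was at 28.2, 28.2 and 32.5 FPKM in control and 25.4, 24.4 and 25.0 in cKO. The groups did not overlap, and the cKO libraries were close to each other. The mean fell to 84.0% of control (29.7 ± 2.48 to 24.9 ± 0.497, SD, n = 3 per group), a difference of -0.24 ± 0.06 (SE), limma adjusted p = 0.030. It lies on chromosome 6 from 86652133 to 86661504 on the minus strand.

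Prpf8, which encodes the U5 protein that cradles the catalytic RNA, was the most abundant of the class, at 65.2, 63.6 and 60.7 FPKM in control and 66.0, 63.9 and 64.4 in cKO. Its groups overlapped and the difference of 0.04 ± 0.04 (SE) did not pass the test (limma adjusted p = 0.58). Snrnp200, encoding the helicase that unwinds U4 from U6, likewise had overlapping groups and a difference of 0.04. The authors' deposited log2 fold changes were below 0 for Prpf8 and Snrnp200 (-0.02 and -0.01) and above 0 for Prpf4 and Prpf4b (0.06 and 0.03). The sign of a difference near 0 thus depended on which comparison was used. A further 2 genes lay lower in every cKO library without passing the test. Prpf3, a U4/U6 protein, was at 13.4, 13.1 and 12.8 FPKM in control and 12.0, 12.1 and 10.6 in cKO (limma adjusted p = 0.074). Snrnp40, a U5 protein, was at 32.2, 34.2 and 32.9 FPKM in control and 29.4, 30.6 and 30.7 in cKO (limma adjusted p = 0.069). In the other direction, Prpf4, the U4/U6 partner of Prpf3, and Prpf4b, a kinase, lay higher in every cKO library with differences of 0.10 and 0.08, and neither passed the test.

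The LSm genes include the U6 ring (Lsm2 to Lsm8), Lsm1 of the cytoplasmic decay ring, Lsm10 and Lsm11 of the U7 particle that processes histone mRNA, and Lsm12, Lsm14a and Lsm14b, which act outside the spliceosome. Of the 13, 10 had a difference below 0, with a median of -0.12, and 1 fell and 0 rose by the limma test (4 and 1 at an unadjusted p under 0.05). Of all tested genes, 42.1% had a difference below 0, 5.74% fell and 13.4% rose. By the authors' deposited adjusted p, 6 of the 13 were lower and 0 higher, beside 13.4% and 12.1% of all tested genes. Lsm14b, whose product binds mRNA in processing bodies and is not part of an snRNP, was at 70.0, 71.9 and 72.9 FPKM in control and 65.2, 65.3 and 61.6 in cKO. The groups did not overlap. The mean fell to 89.5% of control (71.6 ± 1.48 to 64.0 ± 2.1, SD, n = 3 per group), a difference of -0.16 ± 0.04 (SE), limma adjusted p = 0.037. It lies on chromosome 2 from 179666780 to 179677258 on the plus strand.

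Its paralog Lsm14a was at 24.5, 24.7 and 24.4 FPKM in control and 24.9, 27.8 and 27.3 in cKO. Every cKO library was thus above the controls, though the difference of 0.11 ± 0.05 (SE) did not pass the test (limma adjusted p = 0.14). The ratio of Lsm14b to Lsm14a was 2.85, 2.91 and 2.99 in control and 2.62, 2.35 and 2.26 in cKO. The ratio was lower in all 3 cKO libraries (2.92 ± 0.0702 against 2.41 ± 0.187, SD, n = 3 per group), a log2 difference of -0.28. By the exact permutation test, two-sided, p was 0.1, the smallest this design allows, and 0.3 after adjustment over the 3 ratios.

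Of the U6 ring, all 7 genes had a difference below 0 and none passed the limma test. Lsm4, the most abundant LSm gene, was at 69.1, 84.4 and 83.5 FPKM in control and 66.9, 68.5 and 63.4 in cKO (limma adjusted p = 0.063). The groups did not overlap, with control replicate 1 close to the cKO libraries. Lsm2, Lsm3 and Lsm7 also lay lower in every cKO library, with differences of -0.14, -0.14 and -0.17. The copy Gm10146, identical to Lsm7 over its 309 coding bases, was listed at a mean of 7.43 FPKM beside 38.9 for Lsm7. The pair of U7 genes stood on opposite sides, as Lsm10 had a difference of -0.24 with overlapping groups and Lsm11 one of 0.16. Lsm11 was at 3.82, 4.07 and 4.13 FPKM in control and 4.42, 4.71 and 4.67 in cKO and lay above every control without passing the test (limma adjusted p = 0.065).

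There were 3 genes of the U11/U12 particle of the minor spliceosome, and 1 of them fell, as it did by the authors' deposited adjusted p. Snrnp35, encoding the U11/U12 35K protein, was at 13.9, 13.0 and 14.0 FPKM in control and 10.2, 11.5 and 11.8 in cKO. Each cKO library was below the lowest control. The mean fell to 82.0% of control (13.6 ± 0.504 to 11.2 ± 0.851, SD, n = 3 per group), a difference of -0.27 ± 0.06 (SE), limma adjusted p = 0.022. It lies on chromosome 5 from 124621197 to 124629187 on the plus strand. Snrnp25, the most abundant of the 3, was at 18.8, 23.1 and 18.7 FPKM in control and 20.1, 19.9 and 21.7 in cKO. With Snrnp48 it had overlapping groups and a difference near 0 (0.03 and 0.02, limma adjusted p = 0.80 and 0.79). The authors' deposited log2 fold changes of Snrnp25 and Snrnp48 were -0.02 and -0.03.

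Prpf19, a ubiquitin ligase that activates the assembled spliceosome, was at 42.7, 46.8 and 45.2 FPKM in control and 44.8, 44.1 and 44.0 in cKO. The groups overlapped and the difference of -0.02 ± 0.05 (SE) did not pass the test (limma adjusted p = 0.82). Prpf18, which acts at the second catalytic step, had a difference of 0.11 with every cKO library above the controls and did not pass the test either (limma adjusted p = 0.16).

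Leaving out a single library ended most of these calls, and it also lowered the share of all tested genes called, to between 8.92% and 16.2%. Only Snrpe was still called without control replicate 3 and without cKO replicate 2, and in both cases it was the single lower gene. Snrpe itself missed the threshold without control replicate 2 (limma adjusted p = 0.065) and without cKO replicate 3 (0.051). Snrnp35 missed it without control replicate 1 (0.056), control replicate 3 (0.067) or cKO replicate 2 (0.052), and Snrnp27 without control replicate 3 (0.055), cKO replicate 1 (0.050), cKO replicate 2 (0.101) or cKO replicate 3 (0.072). Snrpd1 missed it without control replicate 2 (0.116), control replicate 3 (0.114), cKO replicate 1 (0.091) or cKO replicate 2 (0.102), and Sf3a3 without each library other than cKO replicate 1 (0.065 to 0.135). Lsm14b and Prpf39 missed it whichever library was left out (limma adjusted p from 0.050 to 0.109 and from 0.069 to 0.146). The direction of all 7 differences stayed as reported in each of these analyses. By contrast, voom on the recovered reads called more, 12 genes lower and 2 higher, beside 8.15% and 19.4% of all tested genes (27.6% in either direction).

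**Figure D4:**
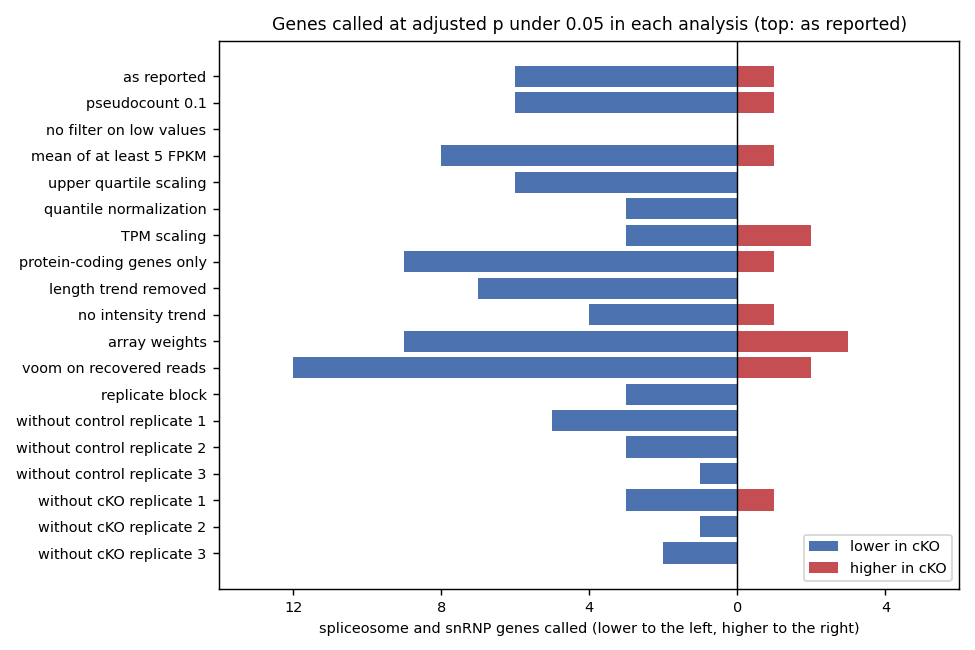
Number of the 54 genes called lower (bars to the left) and higher (bars to the right) at an adjusted p under 0.05 in the reported analysis and 18 alternatives. Lower calls range from 0 with no filter on low values, which made no call, to 12 with voom on the recovered reads.

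The difference of these genes moved with gene length, the deposited length from which FPKM was computed. Across the 54 genes, Snrpf included, the correlation between log2 length and the difference was r = 0.67 (Spearman's rho 0.65). Snrpf is among the shorter genes with the lowest difference of all, and its lower cKO value was built into its inclusion. The correlation without Snrpf was not computed. Across all 13538 tested genes the correlation was r = 0.19 (rho 0.26). No p is given since genes share libraries and are not independent replicates. Without Snrpf, the 26 genes shorter than the median of 3641.5 bases had a median difference of -0.15, 24 of them below 0, and they held all 6 genes that fell. The 27 longer genes had a median of -0.01, with 14 below 0, and held Prpf39. Split at the same length, all tested genes had medians of -0.03 and 0.06, with 8.57% and 3.66% lower and 8.54% and 17.0% higher in cKO. All 8 Sm genes were shorter than that median, and the tri-snRNP genes had a median length of 5661 bases. With the trend of each library against length removed, 7 of the 54 genes were lower and 0 higher. Of all tested genes 7.67% were then lower and 8.62% higher (16.3% in either direction). The median of the 54 genes, Snrpf included, was then -0.13 beside -0.01 over all tested genes. The lower genes were then Snrpe, Snrnp27, Sf3a3, Lsm14b, Prpf3, Snrnp40 and Snrnp70, so Snrpd1, Snrnp35 and Prpf39 were no longer called (adjusted p of 0.060, 0.069 and 0.28 with limma). The difference of Snrpd1 was then -0.25 in place of -0.28, that of Snrnp35 -0.21 in place of -0.27 and that of Prpf39 0.08 in place of 0.17.

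**Figure D5:**
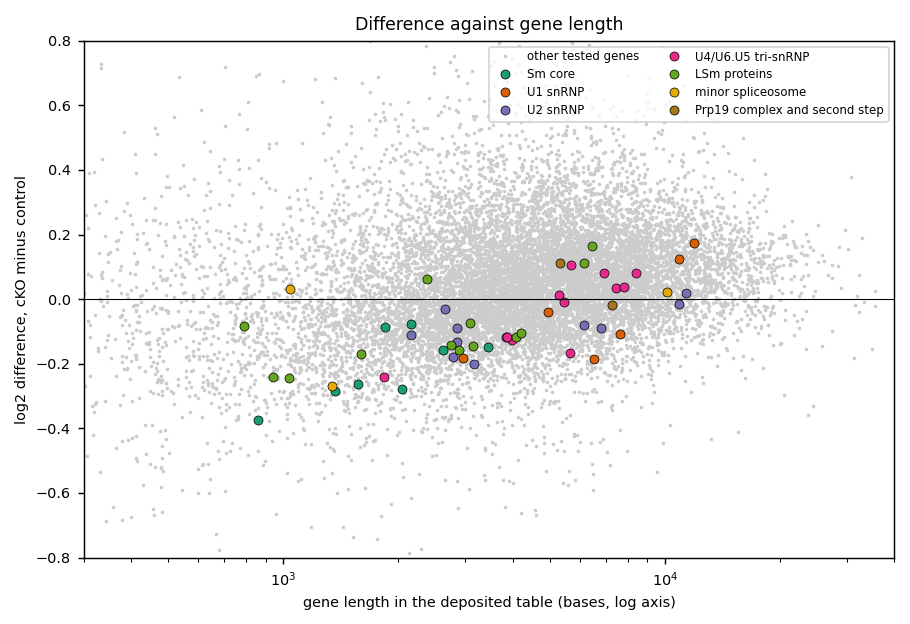
Log2 difference between cKO and control against gene length in bases (log axis) for the 54 genes, coloured by class, with the other tested genes in grey. The short Sm and LSm genes lie mostly below 0 and the genes longer than the median of 3641.5 bases lie around 0.

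Further lists of the splicing machinery were described in the same way. Of 66 further spliceosome components, 7 fell and 1 rose (10.6% and 1.52%, beside 5.74% and 13.4% of all tested genes), with a median of -0.04 and 37 below 0. By the adjusted p of the authors' deposited table, 21 of the 66 were lower and 1 higher, beside 13.4% and 12.1% of all tested genes. Ppil1, a peptidyl-prolyl isomerase of the active spliceosome, was at 30.6, 31.4 and 30.4 FPKM in control and 26.6, 26.4 and 25.5 in cKO, a difference of -0.22 ± 0.04 (SE), limma adjusted p = 0.0082. Phf5a, a small subunit of SF3B that the symbol rule misses, was at 39.2, 43.4 and 39.7 FPKM in control and 32.5, 35.6 and 34.4 in cKO, a difference of -0.25 ± 0.06 (SE), limma adjusted p = 0.020. Both genes were lower in all cKO libraries. Ctnnbl1, a partner of the Prp19 complex, fell from 33.0 ± 0.68 to 28.3 ± 1.12 FPKM (SD, n = 3 per group, limma adjusted p = 0.015). Ctnnbl1 was not called without control replicate 2 (limma adjusted p = 0.055), nor Phf5a without control replicate 2 (0.061) or cKO replicate 3 (0.051). The other lower genes were Syf2, Cwc27, Ppih and Snu13, and the higher gene was Ddx46, a helicase that acts with U2, from 23.2 ± 0.296 to 26.4 ± 0.769 FPKM (SD, n = 3 per group, limma adjusted p = 0.021).

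Snu13, the protein shared by the U4 and box C/D particles, was at 52.3, 53.5 and 54.6 FPKM in control and 50.0, 48.0 and 45.5 in cKO, a difference of -0.16 ± 0.05 (SE), limma adjusted p = 0.049. All cKO libraries lay below the controls. Of the factors for snRNP assembly and transport, 32 of 33 were tested. By limma 2 fell, the targeted Znhit3 and Clns1a, while 0 rose (3 at an unadjusted p under 0.05, 1 with voom). At that unadjusted p 6 were lower, Znhit3 included. Of the 13538 tested genes, 3225 were then higher and 1621 lower. Without Znhit3, whose fall the design builds in, 1 of 31 fell (3.23%, beside 5.74% of all tested genes). The authors' deposited table has 6 of these 31 lower and 0 higher, beside 13.4% and 12.1% of all tested genes. Clns1a encodes pICln, which delivers Sm proteins to the SMN complex, and was at 32.0, 33.7 and 30.6 FPKM in control and 26.1, 28.5 and 29.2 in cKO (difference -0.19 ± 0.06, SE, limma adjusted p = 0.047). Its groups did not overlap, but it was not called when any 1 library was left out (0.059 to 0.14). Of 11 tested minor spliceosome components outside the 54 genes, limma called 0 (2 higher and 0 lower at an unadjusted p under 0.05, 1 higher with voom, 1 lower in the authors' deposited table), with a median of 0.09. The most abundant, the helicase Dhx15, which is also among the 66, was at 48.6, 44.8 and 46.3 FPKM in control and 49.4, 48.3 and 49.3 in cKO (limma adjusted p = 0.26), with 1 cKO library below the highest control.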

How the data were processed

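Poly(A)-selected RNA of the 6 P3 libraries was sequenced as dUTP-marked paired-end libraries, per the labels' protocols. Per the submitters' processing notes the tools were cutadapt 1.9, HISAT2 2.2.1, StringTie 2.1.6, DESeq2 and edgeR and the build mm10, with no role given. Neither an annotation nor a strand setting for counting is stated there. The authors deposited 1 table with FPKM values per library. It also holds a comparison, per the file headers, with a mean signal per gene, a log2 fold change, a test score and a p-value. The cKO columns carry a prefix other than WT and were taken as cKO because the labels list no other P3 group. Multiplied by the deposited gene length, 100% of FPKM values gave whole reads within 0.02 reads. The deposited positions did not match GRCm38, so their build is not stated, and no position was converted. Within a group, each pair of libraries differed by more than counting noise (chi-square over degrees of freedom, 4.38 to 9.71), so none was treated as a duplicate.

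Tests were run with limma 3.58.1 in R 4.3.3 on log2(FPKM + 1) with an intensity trend and no covariates, adjusted by Benjamini-Hochberg over the 13538 genes that averaged 1 FPKM or more. On simulated reads for the real genes, 52.0% of genes changed 1.25-fold, 97.8% of those changed 1.5-fold and 100.0% of those changed 2-fold or 3-fold were recovered for cKO against control, among 13543 genes fitted. The simulation gave all genes the same spread beyond counting noise and changed fewer genes than were called in the real data. The 3 paralog ratios were compared with an exact permutation test, and 1 gene and the ratio that needs it are not reported here. Copies were sought by alignment of coding sequences to GENCODE M21 transcripts. The genes and lists were chosen with earlier results of these data known. Named with values in every library were the called genes, the most abundant gene of each class, the paralog pairs and Znhit3, and from each further list up to 3 called genes by smallest p, or the most abundant. Snrpg, Snrpf, Snrpb2, Prpf3, Snrnp40, Lsm11, Snu13, Ddx46 and Atoh1, and further differences quoted without library values, were chosen after their values were seen. Alternatives were a pseudocount of 0.1, no filter or a mean of 5 FPKM, 3 other scalings (upper quartile, quantile, TPM), protein-coding genes only, removal of the length trend, no intensity trend, array weights, voom on the recovered reads, a replicate block and leaving out each library.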

Additional observations from a re-analysis of the deposited data

How the results depend on the processing

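In the reported analysis and all 18 alternatives, the median of the 54 genes (Snrpf included where fitted) lay below that of all tested genes. No named gene or ratio reversed past the threshold. Calls were less stable. The adjusted p-values of the 7 called genes lay between 0.018 and 0.045. The lowest fold simulated was 1.25, at which 52.0% of genes were recovered. The 7 differences were smaller than that fold, so this share does not describe them. The cause of the changes was not tested. Among the 54 genes (1 higher, 6 lower as reported), no filter on low values gave 0 higher and 0 lower (2.85% and 1.24% of all genes fitted), upper quartile scaling and removal of the length trend 0 higher, quantile normalization 0 higher and 3 lower (8.01% and 6.08%), TPM scaling 2 higher and 3 lower (18.1% and 4.06%), array weights 3 higher, and voom on the recovered reads 2 higher and 12 lower (19.4% and 8.15% of all tested genes). Among the 66 other spliceosome components (1 higher, 7 lower), no filter gave 2 lower and TPM scaling 4 higher and 3 lower. Protein-coding genes only gave 2 higher, removal of the length trend 0 higher and no intensity trend 3 lower. Array weights gave 4 higher and 12 lower, and voom 3 higher and 13 lower. Of all genes fitted, array weights called 18.8% higher and 8.66% lower, and protein-coding genes only 18.5% and 7.69%. These shares were 13.8% and 5.06% with no intensity trend, and 8.62% and 7.67% with the length trend removed. Upper quartile scaling gave 12.5% and 6.22%. Among the minor spliceosome components (0 called), TPM scaling, protein-coding genes only, no intensity trend, array weights and voom each gave 1 higher, and array weights 1 lower. Among the assembly and transport factors (0 higher, 2 lower), no filter gave 1 lower, quantile normalization 4 lower, and TPM scaling 1 higher and 1 lower. Protein-coding genes only gave 4 lower, no intensity trend 1 lower, array weights 3 higher and voom 1 higher. Each lower count includes the targeted Znhit3, which was called lower in the reported analysis and in all 18 alternatives.

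Leaving out each library gave 0 to 1 higher and 1 to 5 lower among the 54 genes. Of all tested genes, 6.35% to 11.0% were then higher and 2.57% to 5.23% lower, so fewer genes were called in total. The other components had 0 to 1 higher and 1 to 7 lower, and the minor components 0 to 1 higher and 0 to 1 lower. The assembly factors had 0 to 2 higher and 1 lower, which was Znhit3 itself each time. For Znhit3 the difference ranged from -0.96 to -0.89, and the log2 ratio difference from -0.34 to -0.23 for Lsm14b to Lsm14a and from -0.07 to 0.07 for Snrpn to Snrpb. Where 2 libraries remained in a group, the fit shared its spread with the other group.

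Replicate numbers are shared between the groups, but same-numbered libraries did not deviate together (correlations of -0.02, 0.04 and -0.10). Pairs with unlike numbers had correlations from -0.08 to 0.11. With so few libraries this cannot show whether same-numbered libraries shared a litter or batch. With a replicate block the 54 genes had 0 higher and 3 lower (Snrpe, Snrpd1 and Snrnp35, beside 7.93% and 3.46% of all tested genes). The other components then had 0 higher and 4 lower, and the assembly factors 1 lower, Znhit3 itself. Values of Snrpf, from 18 to 58 reads per library, are limited by depth.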
